A study of Homo sapiens with 6 samples.

Results

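The genes described here encode the lysosome's hydrolases, its membrane proteins and the proton pump that acidifies it. They are 38 genes taken by symbol from a list made by function, and all 38 were found among the 34644 gene names of the tables. They were read in the human podocyte cell line HPC, labelled wild type. Podocytes are the epithelial cells whose foot processes cover the capillaries of the kidney filter. There were 3 libraries from cells in high glucose with a lentivirus made to overexpress PRDM16 and 3 from cells in high glucose with a negative control (NC) lentivirus, all with 24 h in their titles. Every culture had high glucose, so the comparison is between the lentiviruses within it. The labels give neither the promoter of the lentivirus nor its dose, and they leave unsaid whether each library had a culture of its own, so the p-values speak only for the spread among these libraries, possibly a technical one. The series asks what overexpressed PRDM16, a zinc finger transcription factor, does to podocyte transcripts in high glucose.

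The lysosome breaks down proteins, sugars and lipids delivered by endocytosis and autophagy. Its cathepsins and glycosidases need an acid lumen, which the vacuolar ATPase (V-ATPase) makes by burning ATP in a cytosolic sector, V1, and moving protons through a membrane sector, V0. The transcription factor TFEB raises many lysosomal genes together by binding a short motif in their promoters. In podocytes, which take up filtered protein and divide rarely, lysosomal breakdown is a main route of clearance, and cathepsin L is known for cutting actin regulators in injured cells.

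The libraries held 20147135 to 41280350 counts with the PRDM16 lentivirus and 20969179 to 27655378 with NC. PRDM16 itself had 11, 18 and 24 counts in the PRDM16 libraries and 0 in each NC library, which is at least 13.9-fold higher when 3 counts over the pooled NC group are taken as its floor (edgeR adjusted p = 1.3e-04; exact two-sided permutation p = 0.1, the smallest that 3 against 3 can give). NC library 2 stood apart: its chi-square per degree of freedom against each other library was 25.8 to 62.9, against 9.21 to 25.0 among the other pairs. Of the podocyte markers PODXL, SYNPO and CD2AP were present, while NPHS1 and PTPRO had at most 3 counts in every library. The 10 podocyte markers summed to 280.5 to 318 CPM (counts scaled to library size) in the PRDM16 libraries and 331 to 429 in the NC libraries, and CD2AP had 7490 counts in NC library 2. Other marker lists were also apart between the groups: 4 parietal epithelium markers summed to 825 to 966 CPM with PRDM16 and 988 to 1036 with NC, 5 proximal tubule markers to 206 to 234 and 175 to 197 in the same order, and 4 simple epithelium markers to 2184 to 2290.1 and 1878 to 2099. Nearly all of the proximal tubule sum was GGT1, with a mean of 198 CPM over the libraries. In that list LRP2 had 0 counts, and CUBN, SLC34A1 and AQP1 had means of 0.325, 0.589 and 2.40 CPM. The simple epithelium sum was mostly KRT8 and KRT18, at 1414 and 677 CPM, against 0.852 for CDH1 and 3.16 for EPCAM. The part of the gaps between these sums in the results below was not tested. The 7 macrophage markers, of cells rich in cathepsins, summed to 2.33 to 3.95 CPM with PRDM16 and 3.004 to 3.58 with NC. CD163, TYROBP and AIF1 had at most 1 count in every library, while PTPRC, CD14, CSF1R and ITGAM had 8 to 63.

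Levels per length differed widely among the 38 genes. The highest was CTSZ, a carboxypeptidase, with a mean TPM (transcripts scaled to length and library, as deposited) of 2161 ± 98.0 (SD over all 6 libraries). PSAP, the precursor of the saposins that present lipids to hydrolases, had 2101 ± 109 TPM, and its libraries overlapped those of CTSZ. CTSD, the main aspartic protease of lysosomes, had 1236 ± 91.5 TPM and LAMP1, the most used marker of the lysosomal membrane, 907 ± 43.8 TPM. The lowest were CTSH, an aminopeptidase, at 1.02 ± 0.311 TPM and CTSK, the collagen-cutting protease of osteoclasts, at 1.84 ± 0.394. CTSS, a protease of antigen-presenting cells, was also low at 8.63 ± 1.47 TPM, as was TFEB at 9.11 ± 1.06. CTSL, the cathepsin studied in podocyte injury, had 104 ± 3.88 TPM. Of the 37 neighbouring pairs in this order 24 had libraries that overlapped and 13 did not. Together the 38 genes took 1.11 to 1.21% of all TPM in each library.

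**Figure D1:**
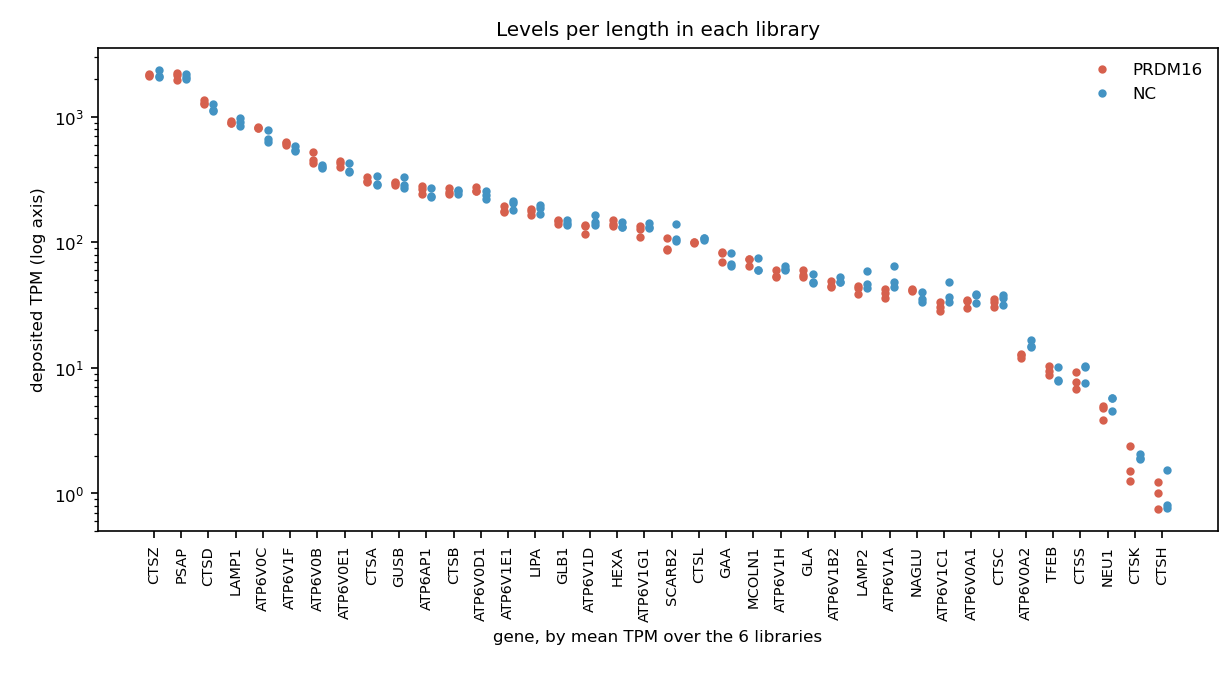
Deposited TPM of each gene on a log axis, ordered by the mean over all 6 libraries, with the 3 PRDM16 libraries (red, left) and the 3 NC libraries (blue, right) as points. CTSZ and PSAP lie near 2000 TPM and CTSH and CTSK near 1 to 2 TPM, and for many genes the points of the groups intermingle.

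Within the V-ATPase, both sectors held subunits at high and at low levels. The proton-carrying ring subunit ATP6V0C had 757 ± 85.2 TPM (SD, n = 6) and its partner in the ring ATP6V0B 435 ± 49.3. The stator arm subunit of V0 exists in several forms. Of these ATP6V0A1 had 34.9 ± 3.21 TPM and ATP6V0A2 14.0 ± 1.77, with TCIRG1, the form known from osteoclasts, at 1.77 to 1.90 times ATP6V0A1 in the PRDM16 libraries and 1.35 to 1.66 times in the NC libraries. In V1 the small subunit ATP6V1F had 585 ± 39.5 TPM, while the catalytic subunit ATP6V1A had 45.8 ± 10.00 and its partner ATP6V1B2 47.9 ± 3.10. The isoforms of acid-secreting kidney cells were near 0: ATP6V1G3 had 0 counts in every library, ATP6V1B1 0 or 1 and ATP6V0D2 1 to 7.

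Some promoters of these genes carry the letters that TFEB is known to bind. In RefSeq windows from 250 bases before to 50 after the start site (GRCh38.p14), which covered 26 of the 38 genes, the E-box CACGTG was found in 9, or 34.6%, against 7.43% of all 27305 windows. The longer CLEAR motif GTCACGTGAC, which contains the E-box, was found in 3, or 11.5%, against 0.381%. Both motifs are palindromes, so a match stands on both strands. A match is a description of letters and not of binding. The stretches around the matches of 8 genes are printed 5′ to 3′ because they show where such motifs lie near the start site. The E-box repeats in LAMP1, MCOLN1, GAA, CTSA and ATP6V0B and stands once in CTSD, ATP6V0D1 and ATP6V1G1. E-boxes are in capitals, as is the full CLEAR motif where it is complete.
LAMP1, chr13:113297030-113297260, plus strand: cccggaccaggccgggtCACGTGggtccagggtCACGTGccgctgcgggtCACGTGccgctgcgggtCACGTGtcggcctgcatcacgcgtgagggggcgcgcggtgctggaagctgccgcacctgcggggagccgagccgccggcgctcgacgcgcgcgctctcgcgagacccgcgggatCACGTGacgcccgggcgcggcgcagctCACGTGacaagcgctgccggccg
MCOLN1, chr19:7522566-7522632, plus strand: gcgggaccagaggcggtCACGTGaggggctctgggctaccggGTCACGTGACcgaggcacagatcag
GAA, chr17:80101488-80101572, plus strand: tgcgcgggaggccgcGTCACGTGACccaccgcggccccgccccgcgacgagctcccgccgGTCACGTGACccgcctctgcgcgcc
CTSD, chr11:1763952-1763991, minus strand: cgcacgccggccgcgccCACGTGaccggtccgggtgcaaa
CTSA, chr20:45891276-45891332, plus strand: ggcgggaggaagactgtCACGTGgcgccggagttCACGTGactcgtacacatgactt
ATP6V0B, chr1:43974886-43974943, plus strand: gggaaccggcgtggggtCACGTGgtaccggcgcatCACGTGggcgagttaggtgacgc
ATP6V0D1, chr16:67481194-67481233, minus strand: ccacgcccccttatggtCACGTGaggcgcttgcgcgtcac
ATP6V1G1, chr9:114587694-114587733, plus strand: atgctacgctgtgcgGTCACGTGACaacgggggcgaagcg
LAMP1 had 6 E-boxes, the first bases of which lay 192, 176, 159, 142, 28 and 1 bases before the start site. MCOLN1, the calcium channel of the lysosome, had 2, at 41 and 14 bases before it, and GAA, the acid glucosidase that breaks down glycogen, had 2 complete CLEAR motifs. The remaining gene with an E-box was NEU1. The V-ATPase genes ATP6V0A1, ATP6V0A2, ATP6V0C, ATP6AP1, ATP6V1D, ATP6V1E1 and ATP6V1F, the cathepsin genes CTSC, CTSH, CTSL and CTSZ, and GLA, GLB1, GUSB, LIPA, SCARB2 and TFEB had no such letters in this window. The window of LIPA, chr10:89414630-89414929, lay outside the span counted for that gene, chr10:89213571-89251926. The start of the counted span of LIPA was therefore not searched. The windows of CTSA, GLB1 and TFEB lay wholly inside the spans counted for them, so the outer starts of those spans were not searched either. No window was listed for ATP6V0E1, ATP6V1A, ATP6V1B2, ATP6V1C1, ATP6V1H, CTSB, CTSK, CTSS, HEXA, NAGLU, PSAP and LAMP2.

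No lysosomal or V-ATPase gene passed the test between the lentiviruses. All 38 were tested, and 0 passed edgeR's quasi-likelihood test at an adjusted p of 0.05 (Benjamini-Hochberg over 15053 genes; adjusted p 0.228 to 0.992), against 0.12% of all genes tested (0.093% higher, 0.0266% lower with PRDM16). DESeq2 and limma-voom also called 0. The unadjusted p was under 0.05 for 12 genes, of which 11 were higher and 1 was lower with PRDM16, against 16.9% of all genes in either direction (9.8% higher, 7.08% lower). The groups did not overlap in 10, with 8 higher and 2 lower, against 21.1% of all genes (12.4% higher, 8.7% lower). The median log2 fold change (PRDM16 over NC) was 0.12 over the 38 genes and -0.02 over all genes tested. Of the 38, 27 were above 0, against 7122 of the 15053 genes. On the deposited TPM, a scale that moves the median of all genes by -0.13, the median of the 38 genes was -0.01. There 18 of the 38 were above 0, against 4566 of the 15053 genes. The median of the 38 lay 0.14 above that of all genes on the TPM and 0.15 above it in edgeR. In whole-culture RNA, fewer cells with a transcript and less of it per cell cannot be told apart.

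**Figure D2:**
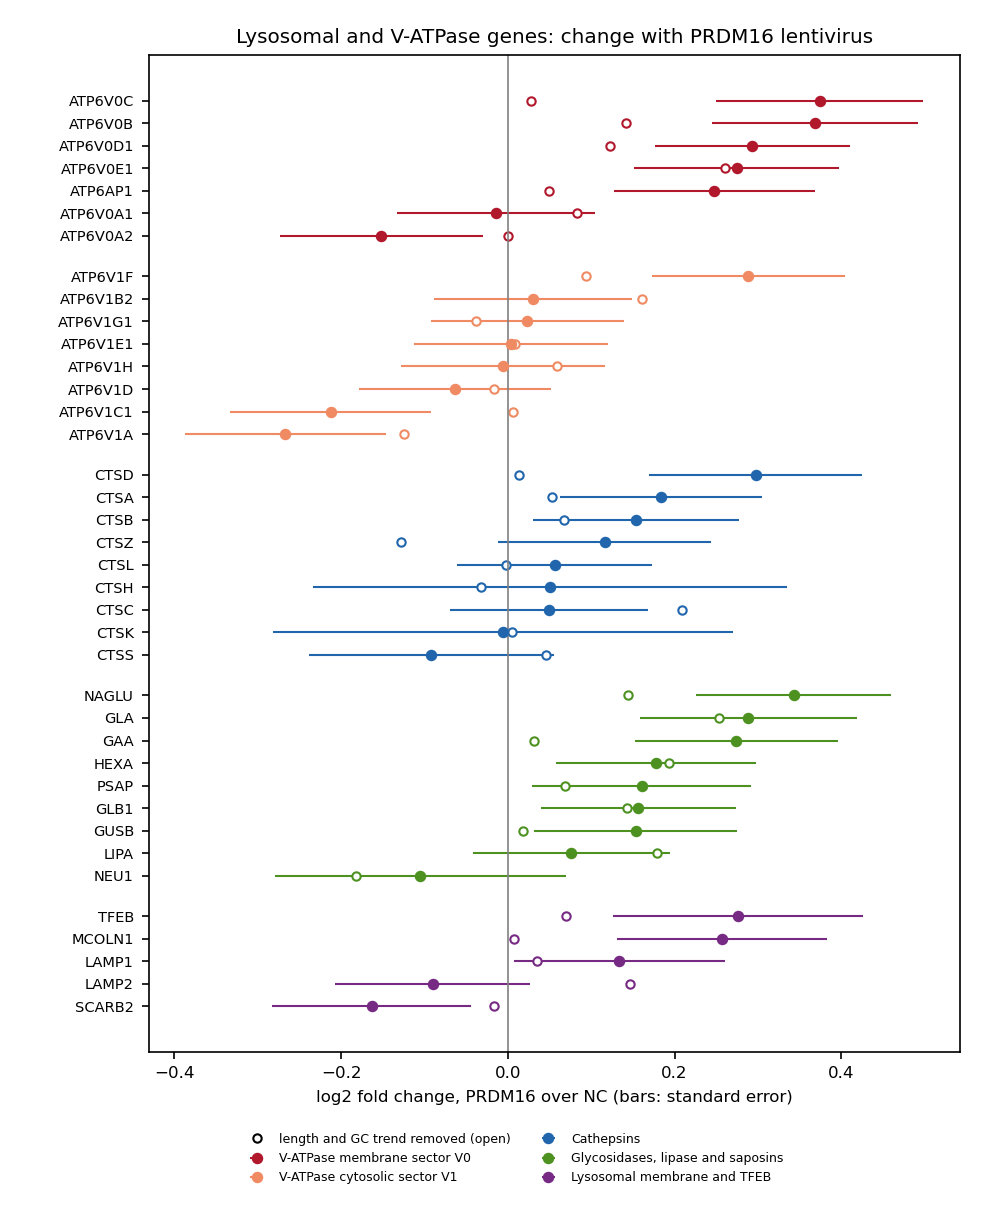
Log2 fold change of each gene, PRDM16 over NC (filled, bars are standard errors), and the same with the trend along gene length and GC content removed (open), grouped by role. ATP6V0C and ATP6V0B have the largest values, 0.37 each, and ATP6V1A the lowest, -0.27. No gene passed the test.

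The V0 sector of the proton pump had the highest median log2 fold change of the 5 role groups, 0.27 over its 7 genes, but not with the length and GC trend removed, where V0 had 0.08 and the glycosidases, lipase and saposins 0.14. Of the 7 V0 genes 5 had an unadjusted p under 0.05, all higher with PRDM16, against 9.8% of all genes, and 0 passed in edgeR. With the trend removed 1 of the 7 had such a p, against 6.84% of all genes. ATP6V0C, on chr16:2513726-2520218 (hg38, plus strand), had 377, 369.7 and 334 CPM in PRDM16 libraries 1 to 3, against 318, 237 and 279 CPM in NC libraries 1 to 3 (CPM scaled by TMM factors here and below). Each PRDM16 library exceeded each NC library, and NC library 2 was the lowest. The log2 fold change was 0.37 ± 0.12 (SE), about 1.3-fold (edgeR unadjusted p = 0.00473, adjusted p = 0.228), and 0.28 without NC library 2. ATP6V0B, on chr1:43974960-43978295 (hg38, plus strand), had 372, 292 and 285 CPM with PRDM16, against 252, 229.9 and 253 with NC. The groups did not overlap, and PRDM16 library 1 was well above the rest. Its log2 fold change was 0.37 ± 0.12 (SE; edgeR adjusted p = 0.228).

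ATP6V0D1, the subunit that joins the ring to the V1 shaft, had 221, 200.3 and 184 CPM with PRDM16, against 178, 154 and 161 with NC. Its groups did not overlap either, with the nearest libraries PRDM16 3 and NC 1. Its log2 fold change was 0.29 ± 0.12 (SE; edgeR adjusted p = 0.265). ATP6V0E1, a small subunit of V0, had 247, 246 and 204 CPM with PRDM16, against 182, 172 and 222 with NC. NC library 3 lay above PRDM16 library 3, so the groups overlapped, with a log2 fold change of 0.27 ± 0.12 (SE; edgeR adjusted p = 0.275). ATP6AP1, an accessory protein needed to assemble the pump, had 276, 231 and 235 CPM with PRDM16, against 231, 188 and 206 with NC. Here PRDM16 library 2 and NC library 1 were level, and the log2 fold change was 0.25 ± 0.12 (SE; edgeR adjusted p = 0.293). The stator forms lay lower: ATP6V0A1 had a log2 fold change of -0.01 ± 0.12 (SE), and ATP6V0A2 one of -0.15 ± 0.12, with 32.4, 33.0 and 30.6 CPM with PRDM16 against 34.6, 36.6 and 35.4 with NC. The PRDM16 libraries of ATP6V0A2 were all lower than the NC libraries, but its log2 fold change was 3.2e-04 once the length and GC trend was removed.

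Of the 8 genes of the V1 sector 4 had log2 fold changes above 0 and 4 below, around a median of -0.00084. ATP6V1F had 182, 188 and 170.2 CPM in the PRDM16 libraries, against 158, 134 and 151 in the NC libraries. The groups did not overlap, and the log2 fold change was 0.29 ± 0.12 (SE; edgeR adjusted p = 0.265). ATP6V1A, which binds and splits ATP, was the only one of the 12 genes lower with PRDM16, with 66.2, 70.8 and 69.7 CPM against 71.4, 96.4 and 80.9 with NC. The highest PRDM16 library was below the lowest NC library, and NC library 2 was far the highest. Its log2 fold change of -0.27 ± 0.12 (SE; edgeR adjusted p = 0.275) was -0.14 without that library. ATP6V1C1, the subunit released when the sectors come apart, had 64.7, 67.0 and 68.6 CPM with PRDM16, against 66.3, 89.8 and 75.8 with NC. Its groups overlapped, with NC library 2 again the highest, and its log2 fold change of -0.21 was -0.08 without that library. ATP6V1B2, ATP6V1D, ATP6V1E1, ATP6V1G1 and ATP6V1H, which make up the rest of the head, shaft and stalks, had log2 fold changes between -0.06 and 0.03.

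Summed over the sectors, V0 transcripts had 2372, 2242 and 2235 TPM in the PRDM16 libraries, against 2144, 1925 and 1993 in the NC libraries. V1 transcripts had 1154, 1277 and 1233 TPM with PRDM16, against 1225, 1280.0 and 1226 with NC. The V0 sums did not overlap between the groups and the V1 sums did. The ratio of V0 to V1 was 2.06, 1.76 and 1.81 with PRDM16, against 1.75, 1.504 and 1.63 with NC. PRDM16 library 2 was 1.755 and NC library 1 1.751, so the groups nearly met. The V0 sum holds the accessory gene ATP6AP1 but not TCIRG1 or ATP6V0E2, so it is not the whole sector. The length and GC trend was not removed from the sums. Median GC content was 57.0% in the V0 genes and 44.5% in the V1 genes. The median log2 fold change of the V0 genes was 0.08 with that trend removed. These sums were not tested.

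Among the 9 cathepsins the median log2 fold change was 0.06. Its sign turned with library totals alone, at -0.0088, and on the TPM, at -0.02498. Only CTSD of the 9 had an unadjusted p under 0.05, against 16.9% of all genes. CTSD, on chr11:1752755-1763927 (hg38, minus strand), had 1125, 1011 and 958 CPM with PRDM16, against 909, 753 and 856 with NC. The lowest PRDM16 library was above the highest NC library, with a log2 fold change of 0.30 ± 0.13 (SE; edgeR adjusted p = 0.271), which was 0.01 once the length and GC trend was removed. CTSA, which also shields the galactosidase and neuraminidase from breakdown, had 385, 369 and 372 CPM with PRDM16, against 368, 291 and 333 with NC. Its groups did not overlap, though PRDM16 library 2 and NC library 1 nearly met, and its log2 fold change was 0.18 ± 0.12 (SE; edgeR adjusted p = 0.397). CTSA shares 30.9% of its exon bases with NEURL2, 21.7% with SPATA25 and 6.48% with PLTP, all on the other strand, and the strand setting of the counting is not given in the sources used here, so its count may hold their reads. CTSZ had 1319.8, 1231 and 1165 CPM with PRDM16, against 1240.4, 1023 and 1165 with NC, and the groups overlapped. CTSH had 1.30, 1.55 and 0.865 CPM with PRDM16, against 0.873, 1.61 and 0.959 with NC, from 20 to 47 counts per library. At that depth its log2 fold change of 0.05 ± 0.28 (SE) has no settled sign.

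CTSB is listed at 2 places, on chromosome 8 and on a patch scaffold, and 80.4 to 82.2% of its counts stood on the scaffold. Summed over both, it had a log2 fold change of 0.15 ± 0.12 (SE; edgeR adjusted p = 0.480). CTSC, the activator of granule proteases, CTSK, CTSL and CTSS had log2 fold changes between -0.09 and 0.06. CTSL averaged 68.2 ± 4.66 CPM with PRDM16 and 65.6 ± 4.94 with NC (SD, n = 3 each), with a log2 fold change of 0.06 ± 0.12 (SE).

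Of the 9 other hydrolases and saposins 8 had log2 fold changes above 0, and the median was 0.16. NAGLU, which trims heparan sulfate and is the enzyme missing in Sanfilippo disease type B, had 82.5, 81.2 and 77.1 CPM with PRDM16, against 71.1, 58.0 and 60.7 with NC. Its groups were apart, with a log2 fold change of 0.34 ± 0.12 (SE; edgeR unadjusted p = 0.00581, adjusted p = 0.233), and 0.29 without NC library 2. NAGLU lies on chr17:42534238-42544449, close behind ATP6V0A1 on the same strand (hg38), whose log2 fold change was near 0. GLA, the enzyme missing in Fabry disease, which fills podocytes with glycolipid, had 29.2, 32.6 and 27.1 CPM with PRDM16, against 23.5, 21.3 and 28.0 with NC. NC library 3 lay above PRDM16 library 3, and the log2 fold change was 0.29 ± 0.13 (SE; edgeR adjusted p = 0.275). GAA, the enzyme missing in Pompe disease, had 156, 128 and 137 CPM with PRDM16, against 135, 103 and 109.9 with NC. NC library 1 lay above PRDM16 library 2, and its log2 fold change was 0.27 ± 0.12 (SE; edgeR adjusted p = 0.273).

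PSAP, the most abundant of this group, had 2490.0, 2111 and 2129.9 CPM with PRDM16, against 2129.9, 1867 and 2025 with NC. PRDM16 library 1 was the highest, and the groups overlapped. GLB1, the beta-galactosidase stained as a sign of senescence, had 199, 179 and 176 CPM with PRDM16, against 175, 148 and 173 with NC. Its groups did not overlap by a margin smaller than their spread, and its log2 fold change was 0.16 ± 0.12 (SE; edgeR adjusted p = 0.446). NEU1, the neuraminidase, had 6.50, 5.07 and 5.98 CPM with PRDM16, against 6.85, 4.95 and 7.10 with NC. Its counts are spread over 8 listings, on chromosome 6 and on alternate haplotypes of the MHC region, so its level is uncertain and its groups overlapped. GUSB, HEXA and LIPA, which split glucuronides, gangliosides and cholesteryl esters, had log2 fold changes of 0.15, 0.18 and 0.08.

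Among the 5 membrane and control genes the median log2 fold change was 0.13, against -0.0044 on the TPM. MCOLN1 alone of the 5 had an unadjusted p under 0.05, against 16.9% of all genes. MCOLN1 had 62.1, 52.4 and 55.3 CPM with PRDM16, against 55.3, 40.9 and 45.9 with NC. PRDM16 library 2 lay below NC library 1, and the log2 fold change was 0.26 ± 0.13 (SE; edgeR adjusted p = 0.293). TFEB had 15.3, 13.4 and 11.6 CPM with PRDM16, against 13.1, 9.41 and 10.7 with NC, and its groups overlapped. Its log2 fold change was 0.28 ± 0.15 (SE; edgeR adjusted p = 0.321), and 0.07 once the length and GC trend was removed. LAMP1 had 985, 946 and 909 CPM with PRDM16, against 934, 753 and 902 with NC. NC library 1 lay above PRDM16 library 3, and the log2 fold change was 0.13 ± 0.13 (SE). LAMP1 shares 15.5% of its exon bases with GRTP1 on the other strand, as ATP6V1E1 does 8.61% with SLC25A18, and GLB1 shares 7.31% with TMPPE on its own strand, so each count may hold reads of the other gene. LAMP2, needed for fusion with autophagosomes, and SCARB2, which carries glucocerebrosidase to the lysosome, had log2 fold changes of -0.09 and -0.16.

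**Figure D3:**
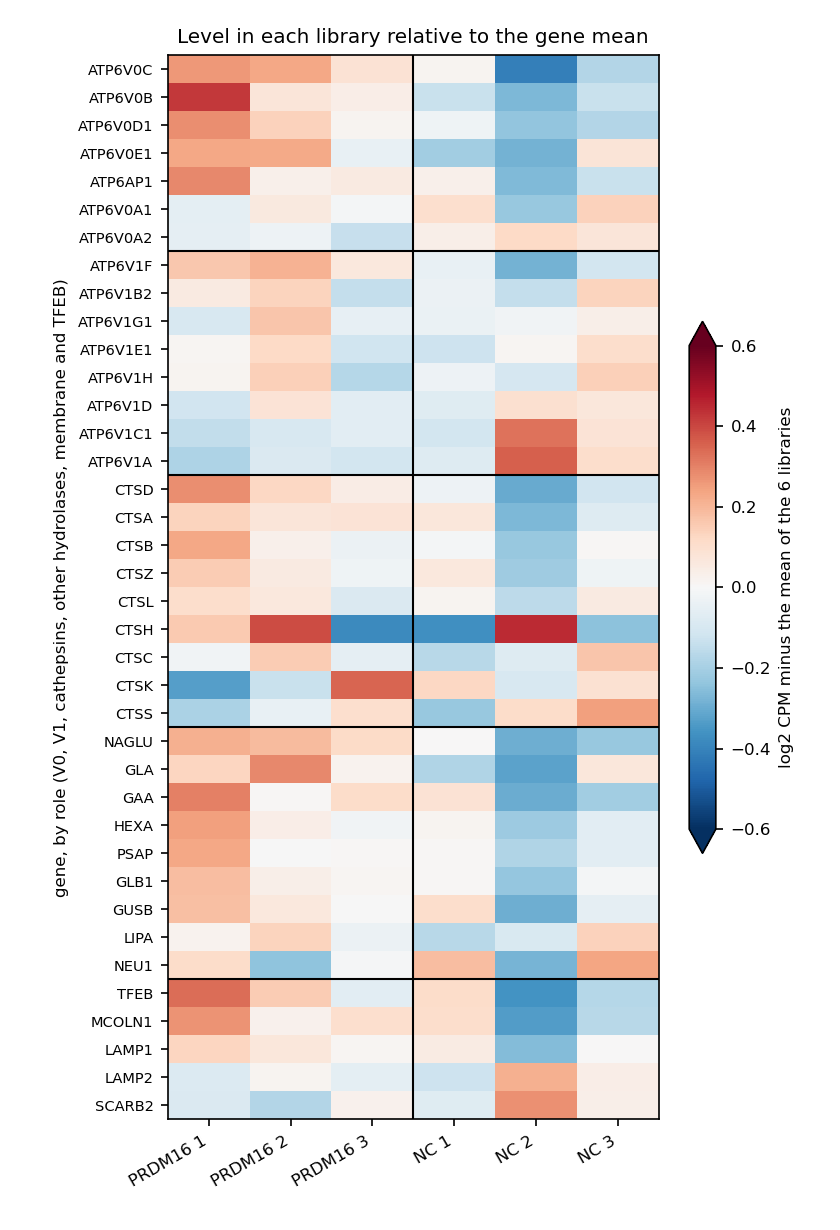
Log2 CPM of each gene in each library minus its mean over the 6 libraries, with the PRDM16 libraries left of the line and the NC libraries right of it, and genes ordered by role and log2 fold change. NC library 2 is the lowest of the 6 in 24 rows and the highest in 7, those of ATP6V0A2, ATP6V1A, ATP6V1C1, ATP6V1D, CTSH, LAMP2 and SCARB2. PRDM16 library 1 is red in most of the rows where NC library 2 is blue.

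Much of the spread lay in single libraries. NC library 2 was the lowest of the 6 for 24 of the 38 genes, against 34.2% of all genes tested, and PRDM16 library 1 was the highest for 19, against 24.5%. The median deviation of the 38 genes from their own means was 0.13, 0.07 and -0.01 on the log2 scale in the PRDM16 libraries and -0.02, -0.22 and 0.02 in the NC libraries, so the groups overlapped over the list as a whole. Without NC library 2 the median of the 38 was 0.06, and 5 genes had an unadjusted p under 0.05, against 7.55% of all genes. These were ATP6V0B, ATP6V0C, ATP6V0D1, ATP6V1F and NAGLU. The values of the other genes of the 12 without that library were 0.21 for ATP6V0E1, 0.19 for ATP6AP1, 0.23 for CTSD, 0.21 for GLA, 0.20 for GAA, 0.17 for MCOLN1 and -0.14 for ATP6V1A. Leaving out PRDM16 library 1, 2 or 3 gave 2, 6 and 11 genes at such a p, against 7.67, 8.97 and 19.9% of all genes. Leaving out NC library 1 or 3 gave 14 and 7, against 27.5 and 18.2%.

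The log2 fold changes followed base composition and, over all genes, length. With all genes divided into 5 equal bins of length, their median was 0.15 in the shortest bin and -0.17 in the longest. Of the 38 genes, 14 lay in the shortest bin, 12 of them above 0, with a median of 0.27. The longest bin held 3 of the 38, with a median of 0.03. Spearman's rho between log2 fold change and the GC content of the transcripts was 0.776 over the 38 genes and 0.650 over the 13575 tested genes with a GC value, and these genes share the same 6 libraries. With all genes divided into 5 equal bins of GC content, the 9 of the 38 in the highest bin all had values above 0, with a median of 0.28, where all genes of that bin had one of 0.24. In the lowest bin 1 of 5 was above 0, with a median of -0.09, against -0.21 for all genes there. The medians of the 38 genes in the bins between were -0.01, 0.06 and 0.15, against -0.13, -0.03 and 0.12 for all genes. The V0 genes had a median GC content of 57.0% and the V1 genes one of 44.5%. With the trend along length and GC content removed the median of the 38 genes was 0.05. Then 30 of the 38 were above 0, against 7794 of the 15053 genes tested. The medians were 0.08 in V0, 0.01 in V1 and 0.01 in the cathepsins. They were 0.03 in the membrane and control genes and 0.14 in the glycosidases, lipase and saposins. With the trend removed 4 of the 38 genes had an unadjusted p under 0.05, against 6.84% of all genes. These were ATP6V0E1 at 0.26, GLA at 0.25, HEXA at 0.19 and NAGLU at 0.14. ATP6V0C stood at 0.03, ATP6V0B at 0.14, ATP6V0D1 at 0.12, ATP6AP1 at 0.05, ATP6V1F at 0.09, ATP6V1A at -0.12, CTSD at 0.01, GAA at 0.03 and MCOLN1 at 0.01.

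**Figure D4:**
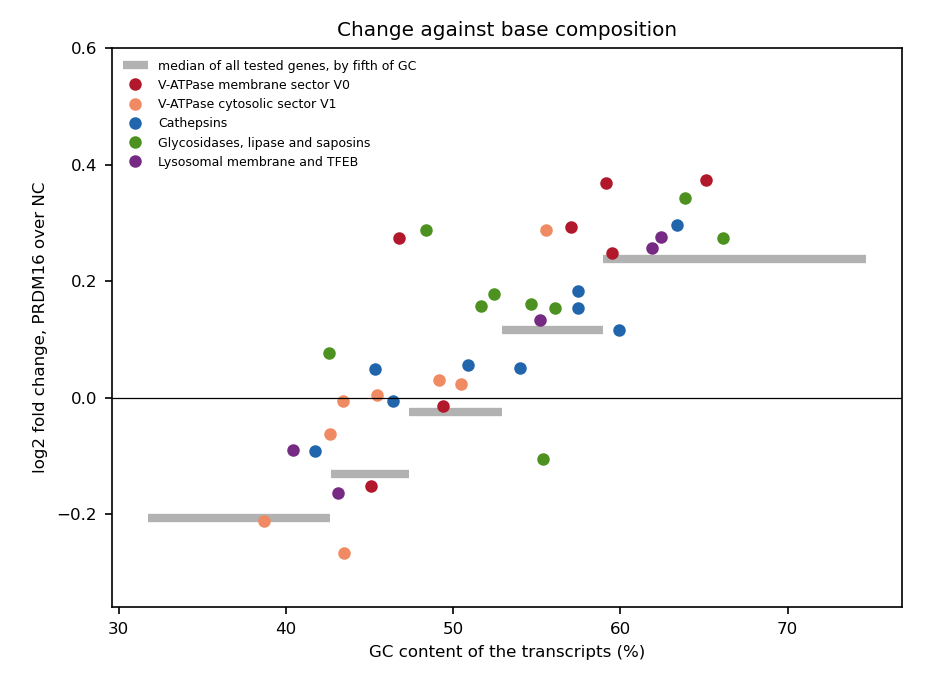
Log2 fold change of the 38 genes (PRDM16 over NC) against the GC content of their transcripts in percent, coloured by role, with grey bars for the median of all tested genes in each of 5 equal bins of GC content. The points climb with the grey bars, which stand at -0.21 in the lowest bin and 0.24 in the highest.

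The 9 genes with an E-box in the promoter window had a median log2 fold change of 0.26, and the 17 with a window and no E-box one of 0.08. The genes with an E-box also had richer transcripts, with a median GC content of 57.5% against 50.9%. With the length and GC trend removed both medians were 0.03. Among the 9, ATP6V0B, ATP6V0D1, CTSD, GAA and MCOLN1 had an unadjusted p under 0.05, and 4 of the 17 did, all higher with PRDM16. Over all genes 16.9% had such a p in either direction and 9.8% had it and were higher. With the trend removed 0 of the 9 and 1 of the 17 had such a p in edgeR, against 6.84% of all genes. ATP6V1G1, with a complete CLEAR motif, had 74.4 ± 7.39 CPM with PRDM16 and 73.2 ± 1.94 with NC (SD, n = 3 each).

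Other genes of the pathway did not pass the test either. Of 118 further genes in 6 lists, 109 could be tested and 0 passed edgeR, DESeq2 or limma-voom. An unadjusted p under 0.05 was found for 27, with 23 higher and 4 lower with PRDM16, against 16.9% of all genes (9.8% higher, 7.08% lower). The median over these genes was 0.09, and 0.06 with the length and GC trend removed. Among 12 tested V-ATPase subunits and assembly factors 6 had log2 fold changes above 0 and 6 below, with a median of -0.02. Of the 12, 4 had an unadjusted p under 0.05, 3 higher and 1 lower with PRDM16, against 9.8 and 7.08% of all genes. With the length and GC trend removed 0 of the 12 had such a p in edgeR, against 6.84% of all genes. ATP6V0E2 had 104 ± 3.64 CPM with PRDM16 and 82.7 ± 7.70 with NC (SD, n = 3 each), and TCIRG1 had 155 ± 2.89 and 127 ± 9.96 in the same order. ROGDI, a factor thought to aid assembly of the pump, stood at 15.4 ± 1.20 CPM with PRDM16 and 12.1 ± 0.729 with NC. VMA21, the assembly chaperone of V0, went the other way with 59.9 ± 6.69 CPM with PRDM16 and 73.7 ± 9.13 with NC, a log2 fold change of -0.30, and of -0.19 without NC library 2.

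Of 37 tested further hydrolases and cofactors 6 (16.2%) had an unadjusted p under 0.05, a share near the 16.9% of all genes. All 6 were higher with PRDM16, where 9.8% of all genes had such a p and were higher. With the trend removed 6.84% of all genes had such a p, as did 1 of the 37. The 4 with the smallest p were HYAL2, a hyaluronidase, at a log2 fold change of 0.32, GALNS, a sulfatase, at 0.28, GRN, the progranulin precursor of lysosomal granulins, at 0.29, and the nuclease PLD3 at 0.27. Of 23 membrane proteins and transporters 8 (34.8%) had an unadjusted p under 0.05, 7 higher and 1 lower with PRDM16. The shares of all genes at such a p were 9.8% higher and 7.08% lower. Once the trend was removed 2 of the 23 had one, where 6.84% of all genes did. The 4 with the smallest p were ABCB9 at 0.31, the chloride exchanger CLCN7 at 0.29, CLN3, the Batten disease protein, at 0.29, and the cholesterol carrier NPC2 at 0.29. The lower one was OSTM1, the partner of CLCN7, at -0.26, and at -0.10 without NC library 2; it is named outside the rule, after its value was seen. Of 11 genes that sort lysosomal enzymes 4 (36.4%) had an unadjusted p under 0.05, 2 higher and 2 lower, against 9.8 and 7.08% of all genes. NAGPA, which uncovers the mannose 6-phosphate tag, and the clathrin adaptor AP1M1 were at 0.32 and 0.27, while GNPTAB, which begins the tag, was at -0.32, and at -0.09 without NC library 2. The sorting receptor SORT1 was at -0.24, with 177 ± 6.17 CPM with PRDM16 and 209.8 ± 19.9 with NC (SD, n = 3 each).

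The lysosome is also where the kinase complex mTORC1 is switched on, through the LAMTOR and RRAG proteins, and TFEB is then held in the cytosol. Of 21 tested genes of this control 4 (19.0%) had an unadjusted p under 0.05, all higher with PRDM16. Over all genes 16.9% had such a p in either direction and 9.8% had it and were higher. With the length and GC trend removed 0 of the 21 had one in edgeR, against 6.84% of all genes. The 4 were the mTORC1 subunit MLST8 at a log2 fold change of 0.37, LAMTOR4 at 0.34, LAMTOR2 at 0.31 and LAMTOR1 at 0.27. With the length and GC trend removed they were at 0.17, 0.06, 0.08 and 0.06. Among 5 tested cathepsin inhibitors CST3, encoding cystatin C, had 331 ± 29.5 CPM with PRDM16 and 256 ± 32.9 with NC (SD, n = 3 each). Its groups did not overlap, with a log2 fold change of 0.37 ± 0.12 (SE; edgeR unadjusted p = 0.00432, adjusted p = 0.228) and of 0.14 with the trend removed. CSTB, CST6 and SERPINB6 were at 0.23, 0.51 and 0.18, where CST6 had under 1 CPM.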

How the data were processed

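RNA was purified on oligo(dT) beads, fragmented and copied from random hexamers, per the labels' protocols. The authors deposited raw counts, TPM and FPKM per gene, per the file headers, on hg38, per the submitters' processing notes; the sources used here name no aligner, counter, strand setting or annotation. The deposited counts were tested. The deposited TPM describe levels, and the deposited FPKM served only to check that totals were whole after the lines of 7 genes, broken over several lines, were rejoined. The 38648 rows were summed over the 2008 names listed at more than 1 row, leaving 34644 names. A TPM of summed rows is the sum of their TPM.

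Genes were tested with edgeR 4.0.16 (R 4.3.3): a robust quasi-likelihood fit with TMM factors. A filter on low counts (minimum count 10, minimum total 15) left 15053 genes. As alternatives, limma-voom (limma 3.58.1) repeated the test on these genes and DESeq2 1.42.0 on the 25264 names with any count. A standard error is the log2 fold change divided by the root of F. With 20147135 to 41280350 counts, 3 counts stand for 0.0727 to 0.149 CPM. Floors cover counting error only. The common biological coefficient of variation was 0.139. The edgeR, DESeq2, limma-voom, blocked and trend-removing fits were tested on simulated data. GC content is the median over GENCODE transcripts of a name and was found for 90.2% of tested genes; the others took the median. The trend was removed as offsets from natural splines (5 degrees of freedom) of log2 length and GC content. The titles do not say that a replicate number marks a shared culture or day, so no pairing was used. Same-numbered libraries gave correlations of deviations of 0.119, -0.124 and -0.153, and differently numbered ones reached 0.239. With 3 libraries per group these values cannot exclude a pairing.

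The members, lists and tests were chosen with earlier results of these data known. All 38 members are named, and values in every library are given for those with an unadjusted p under 0.05, those whose groups do not overlap and the highest and lowest by TPM in each role group; in further lists up to 4 genes with the smallest p are named. Isoforms of kidney cells, markers and TCIRG1's ratio were picked for their role after their levels were seen. A few podocyte markers are not reported here by name.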

Additional observations from a re-analysis of the deposited data

How the results depend on the processing

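No member and no gene of the further lists passed under any of the 18 alternatives. Of the 22 members given in every library, 16 kept their direction in all 18. Over all genes 18 passed in the main fit. DESeq2 gave 42 and the fit with no filter 114, both from 25264 names rather than 15053. Other settings gave 4 with limma-voom, 11 with RLE factors, 5 with library totals alone, 9 with the stricter filter and 10 with rows not summed. There were 5 with the trend removed (with or without the replicate block), 3 on the deposited TPM and 13 to 148 when 1 library was left out. Members at an unadjusted p under 0.05 numbered 12, where 16.9% of all genes had such a p. They numbered 4 with the trend removed (6.84% of all genes), 2 with that and the replicate block (5.61%) and 5 on the TPM (15.8%). When 1 library was left out they numbered 2 to 14, against 7.55 to 27.5% of all genes. The replicate block alone gave 12 members at such a p, against 13.8% of all genes. With it 22 genes passed over all, 11 of them higher and 11 lower, against 14 higher and 4 lower without it. Same-numbered libraries had correlations of deviations of 0.119, -0.124 and -0.153, which cannot exclude a pairing. The TPM, added after the data were seen, gave medians of -0.014 over the members, 0.13 in V0, -0.15 in V1, 0.017 in the hydrolases and -0.0044 in the membrane genes, with all genes shifted by -0.13. The V0 median was 0.083 with the trend removed and 0.092 with the block too; that of the cathepsins ran between 0.051 and 0.16 when 1 library was left out. DESeq2 gave PRDM16 no adjusted p and the stricter filter left it untested. PRDM16 did not pass with block and trend removal together (log2 fold change 6.98, adjusted p = 0.182) or on the TPM (1.48, adjusted p = 0.205).

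Signs changed in 6 of the 22 members given in every library. With the trend removed ATP6V0A2 stood at 3.2e-04 (8.0e-04 with the block), ATP6V1C1 at 0.0058 (0.0066 with the block) and CTSZ at -0.13 (-0.13 with the block). CTSH was at -0.020 with library totals alone, -0.032 with the trend removed, -0.024 on the TPM and -0.17 to 0.41 when 1 library was left out. CTSZ and LAMP1 were at -0.025 and -0.0044 on the TPM, and NEU1 at 0.20 from its chromosome row alone. The other members were not followed through all 18 alternatives, and some of them changed sign too. With the trend removed LAMP2 went from -0.09 to 0.15 and ATP6V0A1 from -0.01 to 0.08. On the TPM CTSC went from 0.05 to -0.09 and CTSL from 0.06 to -0.09. The causes of these sign changes were not tested, and CTSH, CTSK and NEU1 are limited by depth.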
